A study of Mus musculus with 24 samples.

Results

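RNA of sorted pre-MegE cells was compared between 2 mouse lines, VF and KI, in 6 of the 24 libraries of the series, 3 for each line. The members were taken from the deposited count table by the labels alone, as the pre-MegE columns of the Vav1.Cre line and of the Scl.Cre mouse Jak2 knock-in line. All mice were C57BL/6N, received tamoxifen on 5 days and gave bone marrow 12 weeks later. Cells were sorted by flow cytometry, RNA was extracted with PicoPure and libraries were made by Smart-seq2, which copies whole polyadenylated transcripts from few cells. VF stands for a line that combines Vav1.Cre with the V617F mutation of Jak2, and KI for a line that combines Scl.Cre with a knock-in of mouse Jak2. The series covers JAK2-WT and JAK2-mutant strains, but the labels do not say whether KI carries a mutation, so KI served as the reference and was not taken as wild type. The labels give neither the species of the V617F allele nor the age or sex of the animals. The Cre driver changed together with the Jak2 allele, and their parts cannot be told apart. The labels do not say that replicates were separate animals, so p-values here cover only the variation among the libraries, which may be technical.

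Pre-MegE cells are bone marrow progenitors that can still form megakaryocytes, the source of platelets, or red cells. JAK2 is the kinase attached to the receptors of several blood cytokines, and it passes their signal on through STAT proteins and through the RAS-ERK pathway. V617F lies in the pseudokinase domain, which normally restrains the kinase, and is the common mutation of human myeloproliferative neoplasms. Immediate-early genes such as Fos and Egr1 are switched on within minutes by growth factor, cytokine and stress signals. Granule enzymes such as Mpo and Elane belong to the neutrophil and monocyte branch, which pre-MegE cells are usually described as having left.

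With all 6 libraries, 2 of 13231 genes passed the test, and both were lower in VF. These were Echdc2, a mitochondrial protein of the enoyl-CoA hydratase family, and Fosb, an immediate-early transcription factor. Without KI replicate 1, which stood apart, 32 genes passed, among them 9 immediate-early genes and 2 genes of early B cells that fell and 6 granule and myeloid genes that rose. For the myeloid genes Elane and Fcgr3 the difference had the opposite sign in stem cells of the same lines, and that contrast passed its own test. All tests across genes were edgeR quasi-likelihood tests with Benjamini-Hochberg adjustment over all genes tested and a threshold of 0.05, and levels are CPM, the share of a gene in the counts of its TMM-scaled library.

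Total counts were 14642836 to 28125309 in KI and 20799679 to 24952650 in VF, with 13912 to 15612 genes detected. KI replicate 1 stood apart from the other 5 libraries. Its Pearson correlation of log2 CPM with them was 0.811 to 0.864, against 0.936 to 0.961 among the others, its TMM factor was 0.589 against 1.04 to 1.2, and it lay at -70.2 on the first principal component (60.9% of the variance), where the others lay between 6.57 and 22.8. Of the genes tested, 441 had 0 counts in it, against 10 to 106 elsewhere. Relative to KI replicates 2 and 3, its median log2 level was 0.50 for short genes, -0.58 for those of middle length and -0.16 for long genes, in 3 classes of equal size. The summed level of 76 cytosolic ribosomal protein genes was 132100 CPM in KI replicate 1 and 18400 to 34980 in the others, and that of nuclear oxidative phosphorylation genes was 155100 against 17640 to 32510. VF replicate 2 held Xist at 297 CPM, against 0.456 to 10.2 in the others, together with the Y-linked Ddx3y at 19.8. Because of these 2 libraries, the counts of called genes are also given without KI replicate 1, and their total without both.

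**Figure D1:**
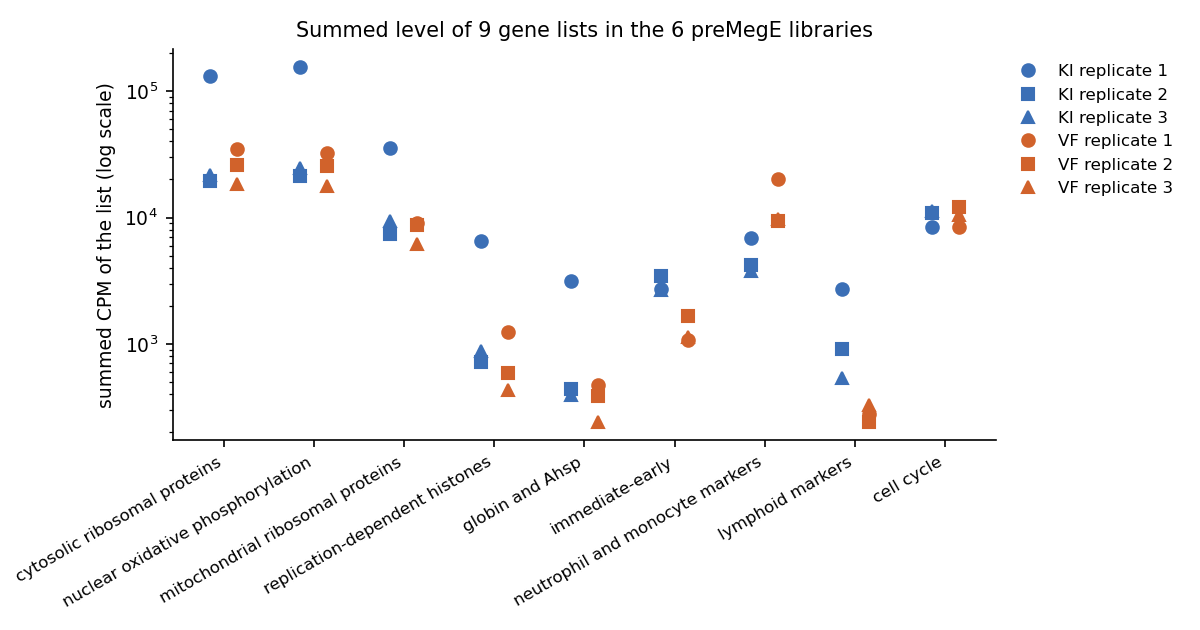
Summed CPM (log scale) of 9 gene lists in each of the 6 preMegE libraries, KI in blue and VF in orange, with a symbol for each replicate. KI replicate 1 lies above all others for the ribosomal protein, oxidative phosphorylation, histone, globin and lymphoid lists, while the immediate-early and the neutrophil and monocyte lists separate the 3 KI from the 3 VF libraries.

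The labelled cell type was checked against its usual markers, on the scale of mean CPM per kilobase over the 6 libraries. The progenitor genes Kit (68.9), Gata1 (188), Gata2 (53.6) and Gfi1b (203) were present. Of the genes whose products the usual gate keeps low, Ly6a (6.70) and Flt3 (11.8) were low, but Itga2b (77.1) and Eng (48.2) were close to Kit or Gata2. Slamf1, which codes for the positive gate marker CD150, was at 7.0 CPM per kilobase, close to Ly6a. Fcgr3, which codes for the gate marker CD16, was at 4.27 in KI and 37.8 in VF.

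Jak2 (Entrez 16452, chromosome 19, 29251803 to 29313095 in GRCm38) was looked at first as the labelled target. Its level was 26.5, 31.7 and 28.8 CPM in KI replicates 1 to 3 and 51.2, 36.1 and 52.3 CPM in VF replicates 1 to 3. Every VF library lay above every KI library, and VF replicate 2 was the closest to them. The log2 difference was 0.68 (SE 0.31, edgeR adjusted p = 0.642), and the exact 2-sided permutation test gave p = 0.1, the smallest that 3 against 3 libraries allow. Counts per gene do not show which allele was read.

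Immediate-early genes were lower in VF. Of 38 listed, 31 could be tested with all 6 libraries, and for 26 the fitted log2 fold change was below 0. Every VF library was below every KI library for 18 of the 31 (58.1%), against 5.44% of all genes tested, and the opposite held for 2 (6.45%, against 6.91%). The list's median log2 difference was -1.49 (-1.27 without KI replicate 1), beside -0.03 (0.02) over all genes tested. Only Fosb of this list passed with all 6 libraries, where 0.0151% of all genes passed as lower, while 9 of 33 fell without KI replicate 1, where 0.14% of all genes did.

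The 9 are transcription factors of the AP-1 and early growth response families (Fos, Fosb, Jun, Junb, Egr1), the MAP kinase phosphatase Dusp1, the phosphatase subunit Ppp1r15a, and the heat shock protein 70 genes Hspa1a and Hspa1b. The promoters of Fos and Dusp1 are shown because these genes moved together and carry the letters TGACG, the core of the site bound by CREB and ATF factors. Each is a window of 100 bases from upstream of the start in RefSeq GRCm38.p6, read 5′ to 3′ on the gene's strand. TGACG or its reverse complement is in capitals. The windows were placed to hold a match, from 114 to 15 bases before the start in Fos and from 188 to 89 in Dusp1. In Dusp1 the matches on the 2 strands overlap and form a longer palindrome.
Fos (chr12:85473776-85473875, + strand): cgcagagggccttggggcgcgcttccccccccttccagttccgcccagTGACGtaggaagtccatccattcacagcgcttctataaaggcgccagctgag
Dusp1 (chr17:26508561-26508660, - strand): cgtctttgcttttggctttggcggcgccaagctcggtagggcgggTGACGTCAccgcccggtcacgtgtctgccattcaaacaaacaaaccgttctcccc
Searched on both strands over 250 bases upstream of a start, counting a gene where any of its starts in the table had a match, TGACG was in 14 of the 28 tested immediate-early genes with a promoter in the table (50.0%), in 30.4% of the tested genes and in 17.8% of all 32851 promoters. The CArG box, the element of serum response factor, was in 2 of the 28 (7.1%) and in 1.4% of the tested genes. A match is a string of letters and not a measured binding site.

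Fos (Entrez 14281, chromosome 12, 85473890 to 85477274) codes for the partner of Jun in the AP-1 factor. It was at 372, 448 and 247 CPM in KI replicates 1 to 3 and at 22.4, 7.46 and 11.6 CPM in VF replicates 1 to 3. The lowest KI library was thus far above the highest VF library. The log2 difference was -4.68 (SE 0.57, edgeR adjusted p = 0.0506) with all 6 libraries and -4.65 (SE 0.45, adjusted p = 2.36e-05) without KI replicate 1.

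Fosb (Entrez 14282, chromosome 7, 19302696 to 19310118), a close relative of Fos, was at 78.4, 45.9 and 37.2 CPM in KI and at 2.62, 0.816 and 0.969 CPM in VF. It was the member with the lowest VF level relative to KI. It fell by 5.20 on the log2 scale (SE 0.59, edgeR adjusted p = 0.0427), and without KI replicate 1 by 4.83 (SE 0.48, adjusted p = 2.36e-05).

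Egr1, a zinc finger transcription factor, was at 161, 231 and 120 CPM in KI and at 20.1, 21.7 and 11.6 CPM in VF. Dusp1, which removes phosphate from MAP kinases, was at 107, 283 and 212 CPM in KI and at 21.7, 25.3 and 16.1 CPM in VF. For Dusp1 the library that stood apart, KI replicate 1, was the KI library closest to VF. Without it the log2 difference was -3.56 for Dusp1 (SE 0.33, edgeR adjusted p = 2.36e-05) and -3.32 for Egr1 (SE 0.37, adjusted p = 0.000104), and with all 6 libraries -3.26 for each (adjusted p = 0.109 and 0.0749).

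Jun was at 262, 469 and 293 CPM in KI and at 76.9, 49.4 and 40.4 CPM in VF. Junb was at 113, 152 and 94.3 CPM in KI and at 48.0, 42.6 and 30.6 CPM in VF. The fall of Junb was the smaller of the pair, at -1.61 on the log2 scale (SE 0.33, edgeR adjusted p = 0.0472) against -2.78 for Jun (SE 0.36, adjusted p = 0.000503), both without KI replicate 1. Hspa1a, a stress-induced chaperone, was at 59.9, 22.8 and 46.4 CPM in KI and at 6.72, 5.71 and 5.58 CPM in VF, and its neighbour Hspa1b was close to it at 63.9, 17.2 and 42.2 CPM against 5.38, 4.41 and 3.88 CPM. Hspa1a and Hspa1b are near copies on chromosome 17 whose reads a count table cannot separate. Each is counted as a gene in the totals above, so the pair does not give independent members. Ppp1r15a, which helps to restart translation after stress, was at 164, 251 and 216 CPM in KI and at 48.2, 102 and 48.7 CPM in VF.

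Other members lay apart without passing. Zfp36, which destabilises inflammatory mRNAs, was at 33.2, 62.2 and 27.3 CPM in KI and at 18.2, 9.01 and 9.32 CPM in VF (log2 -1.89 without KI replicate 1, edgeR adjusted p = 0.065). Ier2 was at 195, 261 and 178 CPM in KI and at 89.6, 99.9 and 56.7 CPM in VF, and Klf6 at 67.6, 78.1 and 66.3 CPM against 31.6, 30.3 and 27.7 CPM. The antiproliferative gene Btg2 was at 178, 115 and 82.9 CPM in KI and at 47.0, 33.8 and 35.0 CPM in VF. The members that lay the other way were Gadd45b (1.51, 1.73 and 1.93 CPM in KI, 7.52, 4.61 and 3.38 CPM in VF) and Fosl2. Myc, the most abundant member per kilobase, overlapped between the lines, at 158, 711 and 696 CPM in KI and 391, 1015 and 636 CPM in VF.

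**Figure D2:**
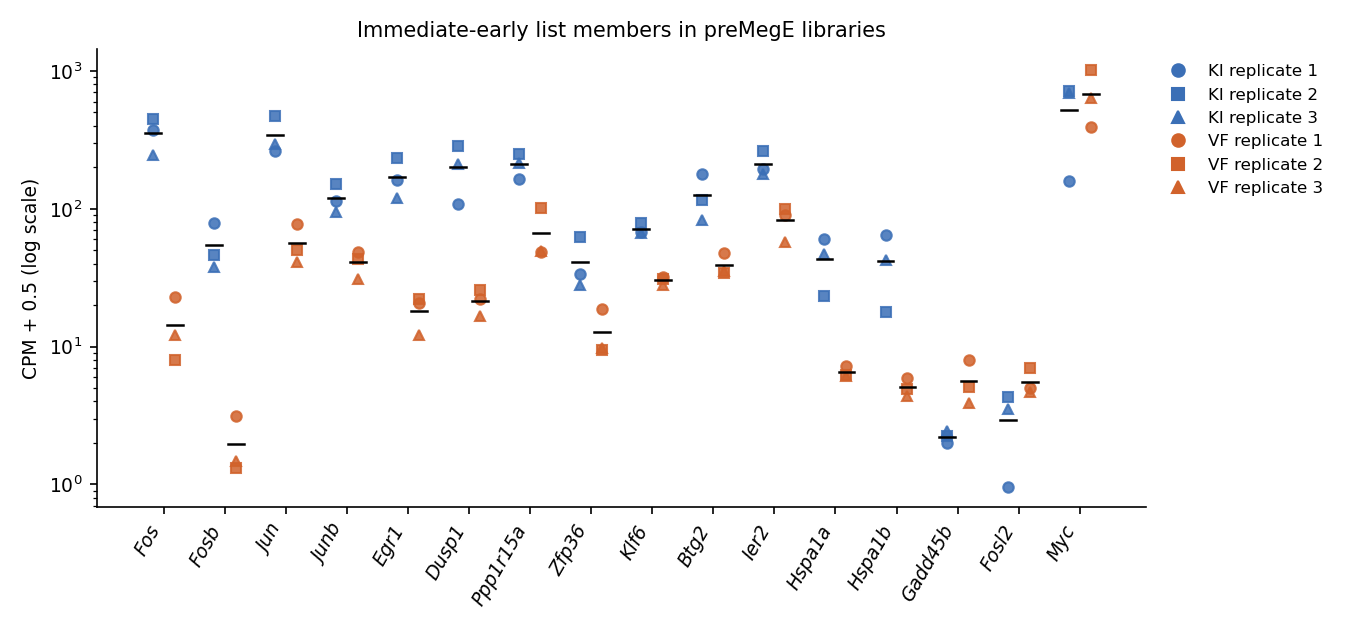
CPM plus 0.5 (log scale) of 16 members of the immediate-early list in the 6 preMegE libraries, with a symbol for each replicate and a black bar at the mean of each line. The 3 VF libraries lie below the 3 KI libraries from Fos to Hspa1b, above them for Gadd45b and Fosl2, and overlap them for Myc.

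Genes of the neutrophil and monocyte branch were higher in VF, but only part of the list. Of 30 listed, 29 could be tested, and every VF library was above every KI library for 10 (34.5%, against 6.91% of all genes tested) and below for 0. The median log2 difference was 0.65 (0.66 without KI replicate 1). None passed with all 6 libraries, where 9 had an unadjusted p under 0.05 as higher, against 2.95% of all genes. Without KI replicate 1, 6 rose (Elane, Fcgr3, Mpo, Ctsg, Ms4a3 and Prtn3) of 29, where 0.0955% of all genes did.

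The promoters of Elane, Mpo and Ctsg are shown because they moved together and hold the letters GAGGAA, a core that ETS factors such as PU.1 bind. As above, each window holds 100 bases from upstream of the start in RefSeq GRCm38.p6 on the gene's strand. GAGGAA or its reverse complement is in capitals. The windows run from 132 to 33 bases before the start in Elane and from 250 to 151 in Mpo and Ctsg.
Elane (chr10:79886180-79886279, + strand): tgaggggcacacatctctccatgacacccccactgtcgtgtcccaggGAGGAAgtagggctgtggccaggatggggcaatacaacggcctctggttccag
Mpo (chr11:87793534-87793633, + strand): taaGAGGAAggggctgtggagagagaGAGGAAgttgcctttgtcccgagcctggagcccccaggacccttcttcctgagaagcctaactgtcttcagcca
Ctsg (chr14:56102725-56102824, - strand): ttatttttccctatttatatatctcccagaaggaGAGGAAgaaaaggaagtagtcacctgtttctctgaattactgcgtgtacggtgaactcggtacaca
GAGGAA was in 15 of the 26 tested members with a promoter in the table (57.7%), in 25.8% of the tested genes and in 23.3% of all promoters, over 250 bases and both strands. It was in 8 of the 28 immediate-early genes (28.6%), and TGACG was in 1 of the 26 neutrophil and monocyte genes (3.8%).

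Elane (Entrez 50701, chromosome 10, 79886312 to 79888216), neutrophil elastase, was at 82.3, 65.5 and 72.4 CPM in KI replicates 1 to 3 and at 2188, 551 and 762 CPM in VF replicates 1 to 3. The KI libraries were close to each other, and VF replicate 1 was far above the other VF libraries. The log2 difference was 3.99 (SE 0.71, edgeR adjusted p = 0.291) with all 6 libraries and 4.08 (SE 0.56, adjusted p = 0.00228) without KI replicate 1.

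Mpo (Entrez 17523, chromosome 11, 87793784 to 87804412) codes for myeloperoxidase and had the highest level of these genes. It was at 391, 1566 and 1238 CPM in KI and at 9385, 6520 and 6296 CPM in VF. Without KI replicate 1, the lowest library, Mpo rose by 2.40 on the log2 scale (SE 0.40, edgeR adjusted p = 0.00814), and with it the difference was 2.80 (SE 0.82, adjusted p = 0.642). Ctsg, the granule protease cathepsin G, was at 367, 173 and 130 CPM in KI and at 1621, 568 and 685 CPM in VF. Its difference was 2.66 (SE 0.46, adjusted p = 0.0156) without KI replicate 1 and 2.10 (adjusted p = 0.642) with it.

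Fcgr3 (Entrez 14131, chromosome 1, 171051169 to 171065915), the low-affinity IgG receptor of the gate, was at 4.18, 4.53 and 8.64 CPM in KI and at 76.3, 28.9 and 48.4 CPM in VF. No libraries overlapped, and the lowest VF library, VF replicate 2, was still above the highest KI library. The rise was 2.98 on the log2 scale (SE 0.46, edgeR adjusted p = 0.00493) without KI replicate 1, and the difference with all 6 was 3.14 (SE 0.49, adjusted p = 0.148). Ms4a3, a membrane protein of granulocyte-monocyte progenitors, was at 90.0, 27.7 and 26.9 CPM in KI and at 299, 91.8 and 115 CPM in VF. Prtn3, proteinase 3, was the member called without KI replicate 1 whose lines overlapped once that library was counted, at 554, 146 and 102 CPM in KI and 1130, 388 and 372 CPM in VF.

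Other myeloid genes were higher in every VF library but did not pass. The monocyte gene Ly6c2 was at 15.7, 8.90 and 11.0 CPM in KI and at 190, 31.0 and 102 CPM in VF (log2 3.46 without KI replicate 1, edgeR adjusted p = 0.083). Its near copy Ly6c1, in no list, did pass in that fit (log2 3.15, adjusted p = 0.033), so reads of this pair may be shared. Csf1r, the receptor of macrophage colony-stimulating factor, was at 2.09, 18.7 and 7.62 CPM in KI and at 43.5, 20.8 and 33.1 CPM in VF. F13a1, a coagulation factor of platelets and monocytes, was at 6.03, 10.9 and 5.33 CPM in KI and at 86.2, 22.1 and 61.7 CPM in VF (adjusted p = 0.054 without KI replicate 1). In Ly6c2, Csf1r and F13a1, VF replicate 2 was the lowest VF library.

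Genes of later neutrophil granules did not follow this order. S100a8, an abundant protein of mature neutrophils, was at 1699, 283 and 400 CPM in KI and at 2026, 13.1 and 63.8 CPM in VF. S100a9 was at 262, 106 and 92.8 CPM in KI and 273, 4.53 and 16.8 CPM in VF, and Camp at 244, 136 and 114 CPM against 365, 5.67 and 20.01 CPM. In all 3 genes VF replicate 1 was highest and VF replicates 2 and 3 lay below every KI library. Ltf, Ngp and Lcn2 also overlapped, as did Lyz2, at 188, 236 and 240 CPM in KI and 291, 142 and 134 CPM in VF. The summed level of the 30 listed neutrophil and monocyte genes was 3778 to 6833 CPM in KI and 9424 to 20280 CPM in VF, and none of them was at 0 in all libraries. In RNA of sorted cells, more cells of a type and more RNA per cell cannot be told apart.

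Markers of mast cells, basophils and eosinophils summed to 290 to 453 CPM in KI and 514 to 752 CPM in VF. Of 14 tested, 3 were higher in every VF library (21.4%, against 6.91% of all genes tested) and 0 lower, with a median log2 difference of 0.68, and none passed in either fit. Gata2, given above as a progenitor gene and also in a megakaryocyte list, was among the 3 and is part of the sums. Hdc, which makes histamine, was at 14.3, 32.1 and 15.4 CPM in KI and at 91.9, 86.1 and 57.1 CPM in VF (log2 1.71 without KI replicate 1, edgeR adjusted p = 0.077). Mcpt8 and Cpa3, the defining genes of basophils and mast cells, overlapped between the lines, and the mast cell genes Mcpt4, Tpsb2 and Tpsab1 were at 0 counts in all 6 libraries. The part of other cells in the myeloid difference was not tested.

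Genes of early B cells were lower in VF. Of 29 lymphoid genes listed, 25 were matched in the table and 19 could be tested. Among the 19, every VF library was below every KI library for 10 (52.6%, against 5.44% of all genes tested) and above for 1, and the median log2 difference was -1.38 (-1.23 without KI replicate 1). None passed with all 6 libraries, where 12 had an unadjusted p under 0.05 as lower (3.63% of all genes did), and 2 of 19 fell without KI replicate 1, where 0.14% of all genes did. These were Igll1 and Vpreb1, the parts of the surrogate light chain of the pre-B-cell receptor, which are neighbours on chromosome 16.

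Igll1 (Entrez 16136, chromosome 16, 16860671 to 16863985) was at 469, 200 and 91.9 CPM in KI and at 36.5, 39.6 and 47.8 CPM in VF. Vpreb1 (Entrez 22362, chromosome 16, 16868401 to 16869255) was at 891, 167 and 93.3 CPM in KI and at 43.8, 32.3 and 35.1 CPM in VF. In both genes KI replicate 1 was highest, and the other KI libraries still lay above every VF library. Without it Igll1 and Vpreb1 each fell by 1.81 on the log2 scale (SE 0.36 and 0.34, edgeR adjusted p = 0.0392 and 0.0271), and with it the differences were -2.62 and -3.37 (adjusted p = 0.548 and 0.608).

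Vpreb3 was at 863, 87.5 and 54.3 CPM in KI and at 31.5, 22.4 and 23.4 CPM in VF. Ebf1, the B-lineage transcription factor, was at 24.6, 35.7 and 26.4 CPM in KI and at 6.72, 6.32 and 12.1 CPM in VF (log2 -1.86 without KI replicate 1, edgeR adjusted p = 0.057). Unlike the surrogate light chain genes, Ebf1 was not highest in KI replicate 1. The antigen receptor subunit Cd79a was at 111, 61.3 and 33.0 CPM in KI and at 13.9, 13.5 and 25.3 CPM in VF. Dntt, the polymerase of antigen receptor joining, and Rag1 overlapped between the lines. Listed lymphoid genes summed to 2715, 911 and 533 CPM in KI and to 279, 240 and 327 CPM in VF, and Cd8a was at 0 counts in all libraries. Whether B-cell precursors in the sort account for these levels was not tested.

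**Figure D3:**
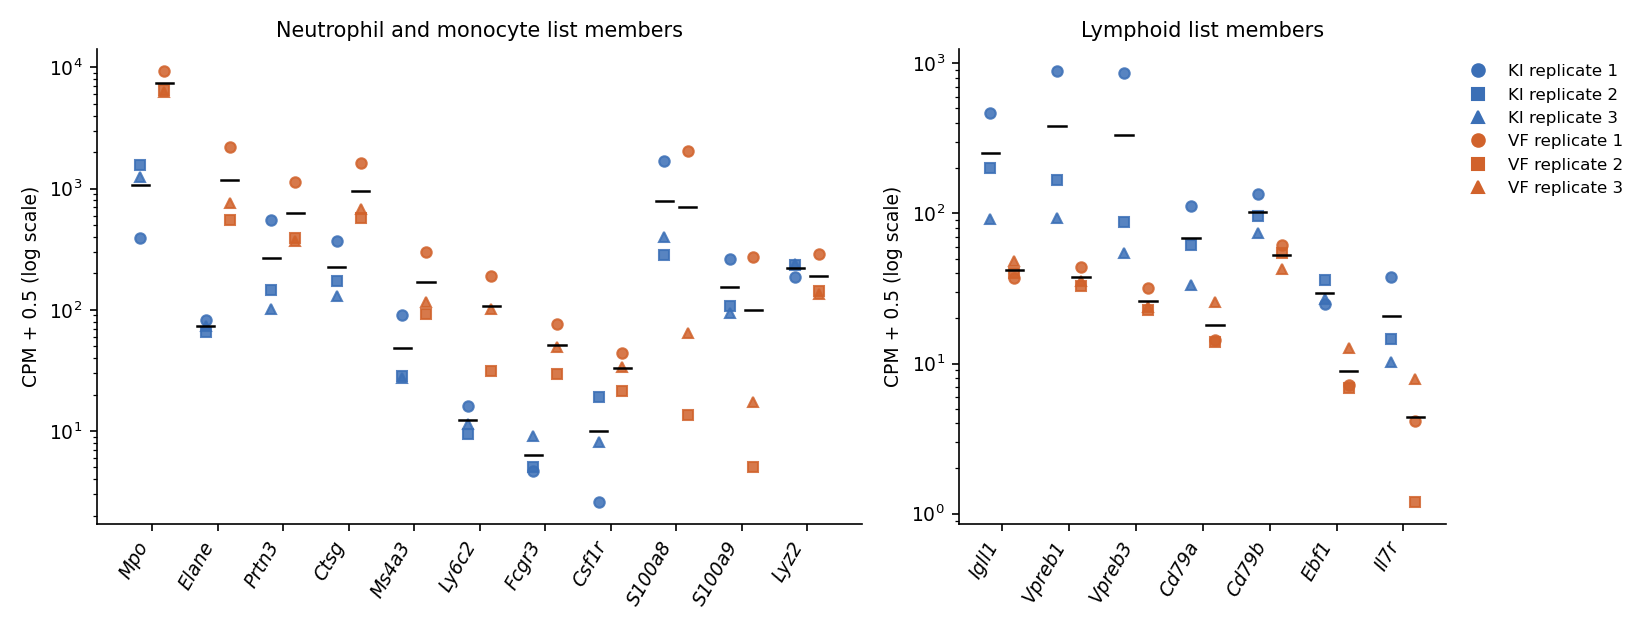
CPM plus 0.5 (log scale) of 11 neutrophil and monocyte genes (left) and 7 lymphoid genes (right) in the 6 preMegE libraries, with a symbol for each replicate and a black bar at the mean of each line. Early granule genes such as Mpo and Elane are higher in every VF library, S100a8 and S100a9 spread widely within VF, and the 7 lymphoid genes are lower in every VF library.

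Echdc2 (Entrez 52430, chromosome 4, 108165436 to 108179308) showed the larger change of the 2 genes that passed with all 6 libraries. It was at 183, 125 and 113 CPM in KI replicates 1 to 3 and at 0.801, 0 and 0.468 CPM in VF replicates 1 to 3. The KI libraries were alike and the VF libraries nearly empty. It fell by 8.37 on the log2 scale (SE 0.94, edgeR adjusted p = 0.0427), and by 8.12 without KI replicate 1 (SE 0.71, adjusted p = 0.000252). The log2 difference between the lines was also below 0 in stem cells, at -5.70 (SE 0.61), and in MkP, the megakaryocyte progenitors, at -5.53 (SE 1.44). Echdc2 had been placed in a list of genes that may differ between C57BL/6 substrains, of which 7 could be tested. Of these, Ide and Wdfy1 were higher in every VF library (28.6%, against 6.91% of all genes tested) and Echdc2 alone was lower. Ide, a peptidase, was at 42.4, 90.4 and 68.4 CPM in KI and at 119, 136 and 156 CPM in VF (log2 1.03, SE 0.38, edgeR adjusted p = 0.642). Wdfy1 was at 52.0, 38.1 and 42.7 CPM in KI and at 86.3, 58.9 and 70.4 CPM in VF (log2 0.70, SE 0.32, adjusted p = 0.642). Neither passed the test. Nnt, which C57BL/6J mice lack as an intact gene, was present in all 6 libraries, at 36.4, 103 and 50.8 CPM in KI and 81.1, 97.4 and 97.2 CPM in VF. Counts per gene do not show whether Nnt was intact, and the substrain was not tested.

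Other genes called without KI replicate 1 had varied roles. Among them, Sfrp4, a secreted inhibitor of WNT signalling, was at 11.9, 30.3 and 57.2 CPM in KI and at 3.56, 6.49 and 3.38 CPM in VF. Ltb, a cytokine of the tumour necrosis factor family, was at 60.8, 29.5 and 30.2 CPM in KI and at 9.92, 8.73 and 7.75 CPM in VF. Prnp, the prion protein, was at 18.0, 36.4 and 45.7 CPM in KI and at 13.7, 11.4 and 12.8 CPM in VF. These 3 fell by 3.29, by 1.76 and by 1.69 on the log2 scale (edgeR adjusted p = 0.000299, 0.04 and 0.0392). Chdh, the mitochondrial choline dehydrogenase, rose by contrast and was at 0.580, 4.10 and 2.53 CPM in KI and at 22.9, 19.2 and 22.3 CPM in VF (log2 2.695, SE 0.44, adjusted p = 0.00673). Of the 32 genes called without KI replicate 1, 30 did not overlap between the lines in all 6 libraries. Of all genes tested, 6.91% lay higher and 5.44% lower in every VF library. The 32 had been chosen from these libraries without KI replicate 1, so the 30 are no separate support. Without VF replicate 2 as well, 41 genes passed, 30 higher and 11 lower, of which 22 were among the 32.

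Genes of the JAK-STAT pathway itself were described by role. Of 30 core members tested, 22 had a log2 fold change above 0, every VF library was above every KI library for 7 (23.3%, against 6.91%) and below for 1, and none passed in either fit. Cbl, a ubiquitin ligase that ends receptor signals, was at 15.7, 22.3 and 16.3 CPM in KI and at 39.0, 24.1 and 34.9 CPM in VF (log2 0.85, SE 0.35, edgeR adjusted p = 0.642). Irs2, an adaptor of insulin and cytokine receptors, was the core member that lay lower, at 59.98, 19.7 and 16.6 CPM in KI and 10.7, 14.5 and 6.88 CPM in VF.

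Targets and feedback genes of the pathway did not lie in 1 direction. Of 39 tested, 4 were higher and 4 lower in every VF library (10.3% each, against 6.91% and 5.44%), and the median log2 difference was 0.19 with all 6 libraries and -0.08 without KI replicate 1. Without it 3 of 40 fell, Junb, Erfe and Podxl, where 0.14% of all genes did. Cish, a feedback inhibitor induced by STAT5, was at 29.4, 34.7 and 25.6 CPM in KI and at 14.5, 14.6 and 14.3 CPM in VF (log2 -1.05, SE 0.32, edgeR adjusted p = 0.642). Its VF libraries were nearly identical and all below KI, but the difference did not pass in either fit.

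Erfe (Entrez 227358, chromosome 1, 91366305 to 91374217) codes for erythroferrone, the hormone by which red cell precursors lower hepcidin. It was at 12.4, 8.96 and 15.4 CPM in KI and at 2.09, 2.61 and 2.84 CPM in VF. Without KI replicate 1 it fell by 2.26 on the log2 scale (SE 0.46, edgeR adjusted p = 0.0472), and with it the difference was -2.28 (SE 0.45, adjusted p = 0.393). Podxl, a sialomucin of the cell surface, was at 127, 60.9 and 65.0 CPM in KI and at 24.7, 19.5 and 16.1 CPM in VF. It fell by 1.65 without KI replicate 1 (SE 0.32, adjusted p = 0.0384).

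Of 31 cytokine receptor genes tested, 7 were higher (22.6%, against 6.91% of all genes tested) and 2 lower (6.45%, against 5.44%) in every VF library, with a median log2 difference of 0.48 (0.41 without KI replicate 1), and none passed in either fit. Kit, the stem cell factor receptor, was at 98.7, 369 and 301 CPM in KI and at 395, 431 and 548 CPM in VF. Il6ra was at 6.96, 21.7 and 20.2 CPM in KI and at 33.2, 34.1 and 30.3 CPM in VF. In both, KI replicate 1 was the lowest library by far.

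Interferon response genes included 67 tested members, of which 11 were higher in every VF library (16.4%, against 6.91%) and 0 lower. The median log2 difference was 0.33 (0.32 without KI replicate 1, where 56 members were above 0 and 11 below), and none passed in either fit. Gbp3, a guanylate-binding protein, was at 9.98, 26.1 and 19.7 CPM in KI and at 65.0, 59.8 and 47.7 CPM in VF (log2 1.62, SE 0.40, edgeR adjusted p = 0.642). The abundant short genes Ifitm1, Ifitm2 and Ifitm3 overlapped and were highest in KI replicate 1, at 4770, 5501 and 4529 CPM.

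By their medians, genes of iron and heme handling lay near the middle of all genes. Of 34 iron genes tested, 2 were higher and 2 lower in every VF library (5.88% each, against 6.91% and 5.44% of all genes tested), and the median log2 difference was 0.05 (-0.09 without KI replicate 1). None passed with all 6 libraries. Without KI replicate 1, 1 of 36 fell, where 0.14% of all genes did. That gene was Erfe, given above with the targets of the JAK-STAT pathway. Tfrc, the transferrin receptor through which erythroid cells take up iron, was at 319, 276 and 237 CPM in KI and at 111, 92.7 and 207 CPM in VF (log2 -1.02, SE 0.44, edgeR adjusted p = 0.642). VF replicate 3 was much closer to KI than the other VF libraries. The ferritin genes Fth1 and Ftl1 overlapped between the lines, and Hamp, the hepcidin gene of liver, was at 0 counts in all 6 libraries.

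Of 24 heme genes, 3 were higher (12.5%, against 6.91%) and 1 lower (4.17%, against 5.44%) in every VF library, with a median of -0.12 (-0.01 without KI replicate 1). Alas1, the housekeeping form of the first enzyme of heme synthesis, was at 38.1, 70.2 and 62.6 CPM in KI and at 139, 120 and 106 CPM in VF (log2 1.10, SE 0.36, edgeR adjusted p = 0.642). Hmox1, which breaks heme down, was at most 2.07 CPM in any library.

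The genes listed as erythroid showed no call in either fit. Erfe, the hormone gene of red cell precursors that fell without KI replicate 1, was counted in other lists. Of 39 genes of erythroid progenitors and red cells, 3 were lower (7.69%, against 5.44% of all genes tested) and 0 higher in every VF library, with a median log2 difference of -0.17 (-0.24 without KI replicate 1, where 30 members were below 0). Car2, the carbonic anhydrase of red cells, was at 5132, 3944 and 5726 CPM in KI and 1684, 4563 and 3246 CPM in VF. Klf1, the erythroid master regulator, was at 584, 588 and 911 CPM in KI and 294, 958 and 529 CPM in VF, and Gata1 overlapped likewise. In Car2 and Klf1, VF replicate 1 was the lowest library and VF replicate 2 the highest of VF. Cd59a, which shields cells from complement, was the erythroid member of smallest p, at 209, 84.3 and 82.4 CPM in KI and 39.5, 29.5 and 38.8 CPM in VF (log2 -1.80, SE 0.44, edgeR adjusted p = 0.623). The median of this list had the opposite sign (0.04) when libraries were scaled by their totals.

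Megakaryocyte and platelet genes also showed no call in either fit. Of 26 transcription factors and receptors of megakaryocytes, 5 were higher (19.2%, against 6.91% of all genes tested) and 1 lower (3.85%, against 5.44%) in every VF library, with a median of 0.17 (0.22 without KI replicate 1). Gata2 was at 92.8, 169 and 116 CPM in KI and at 214, 244 and 208 CPM in VF (log2 0.82, SE 0.39, edgeR adjusted p = 0.642). Of 33 platelet granule genes, 5 were higher (15.2%, against 6.91%) and 0 lower, with a median of 0.39 (0.27). Among the 5 were Anxa3 and F13a1, and F13a1 was already given above with the myeloid genes. Pf4, platelet factor 4, overlapped and differed widely between libraries, at 2478, 210 and 186 CPM in KI and 1174, 380 and 225 CPM in VF. Among 29 platelet receptor genes, 0 lay apart in either direction.

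Some lists took their sign from KI replicate 1 alone. The median log2 difference of 44 histone genes was -1.86 with all 6 libraries and 0.08 without that library. For 74 oxidative phosphorylation genes it was -1.71 and 0.35, and for 76 cytosolic ribosomal protein genes -1.32 and 0.54. None of these genes passed in either fit. Globin genes, at -1.98 and -0.26, kept their sign. Near copies share reads, so Hba-a1 with Hba-a2 and the Hbb genes are not independent, although each tested gene is counted in the median. Malat1, a nuclear RNA, was at 12880 CPM in KI replicate 1 and at 742 to 2570 CPM in the others.

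**Figure D4:**
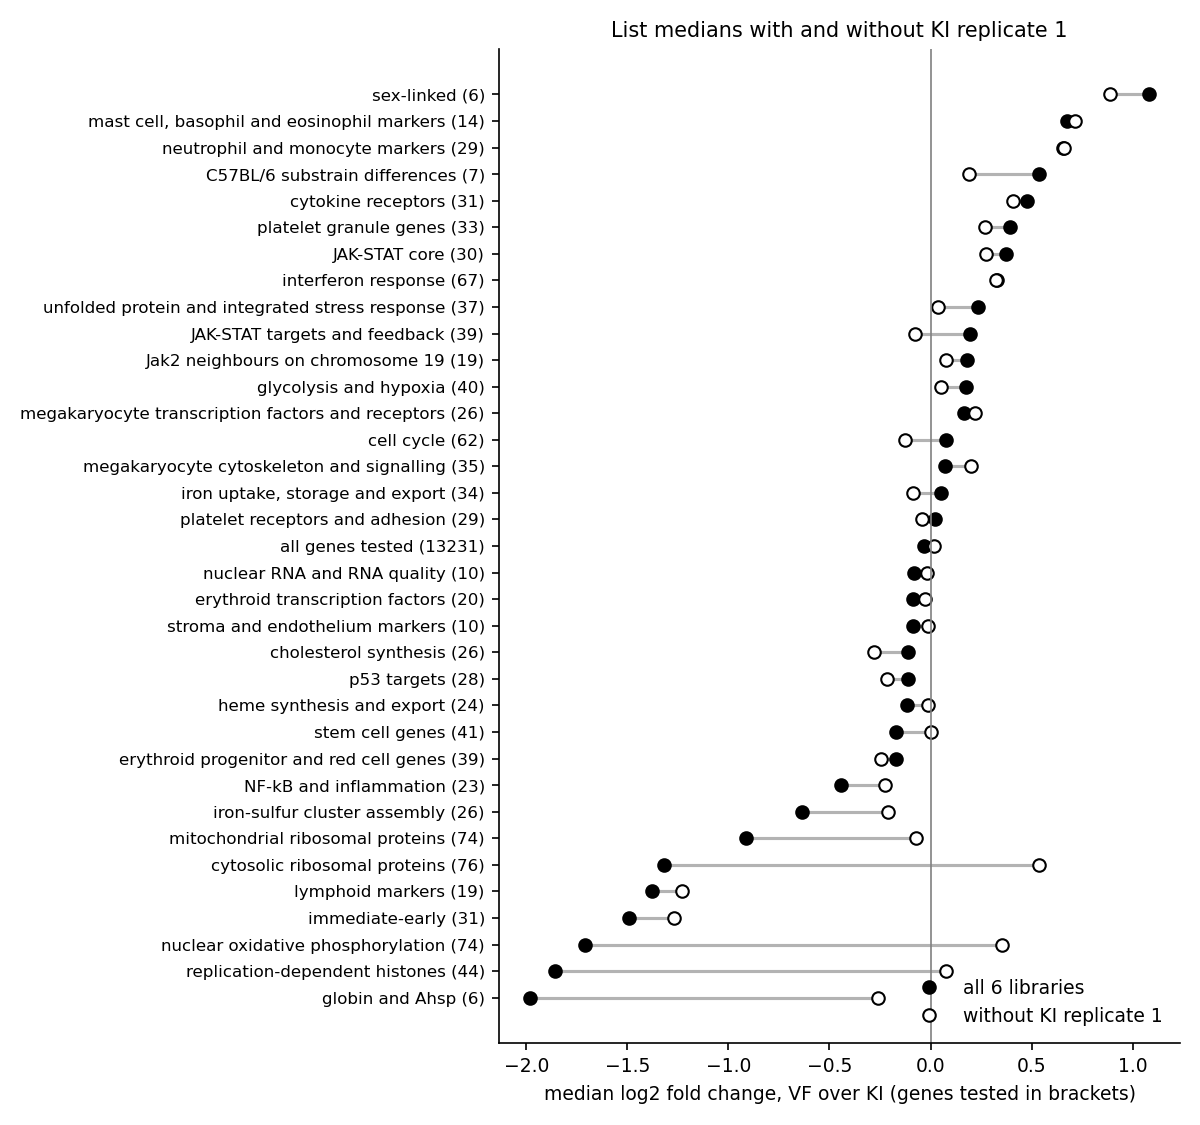
Median log2 fold change of VF over KI for each gene list, with all 6 libraries (filled) and without KI replicate 1 (open); the number of genes tested is in brackets. The immediate-early and lymphoid medians stay below -1 and the neutrophil and monocyte median stays near 0.65, whereas the histone, oxidative phosphorylation and cytosolic ribosomal protein medians cross 0.

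The difference between the lines was then set against that in LTHSC, the long-term stem cells, with a test of the difference of differences in 12 libraries. Of 14387 genes, 4 passed (0.0278%). Elane and Fcgr3 were higher in VF in preMegE and lower in VF in LTHSC (log2 -2.14 and -2.11), Hdc followed the same order, and Podxl the reverse. Mpo (difference 4.75, SE 0.82, edgeR adjusted p = 0.0872) and Ctsg (4.26, SE 0.78, adjusted p = 0.109) did not pass.

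Among the immediate-early genes, the log2 difference in LTHSC was -5.18 for Fos, -5.34 for Egr1 and -4.05 for Dusp1, the same sign as in preMegE, and its difference from preMegE did not pass (edgeR adjusted p = 0.918, 0.370 and 0.722). Hspa1a had the opposite sign in LTHSC, at 2.05 (SE 0.87), and that contrast did not pass either (-4.86, SE 1.23, adjusted p = 0.370). In MkP the log2 differences were -0.30 for Fos (SE 0.55), -1.04 for Egr1 (SE 0.36) and -0.85 for Dusp1 (SE 0.39). Against MkP, 0 of 13888 genes passed by edgeR and DESeq2 called 9. The edgeR test gave an unadjusted p under 0.05 for 390 genes, fewer than a threshold of 0.05 alone would give. In simulated data this contrast recovered 12.3% of 8-fold changes. The 10 most abundant genes held 9.33% and 10.1% of counts in MkP KI replicates 5 and 6. This share was 4.90% in MkP KI replicate 4 and 5.60% to 8.04% in MkP VF. For Fos the difference from MkP was -4.38 (SE 0.81, adjusted p = 0.988).

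**Figure D5:**
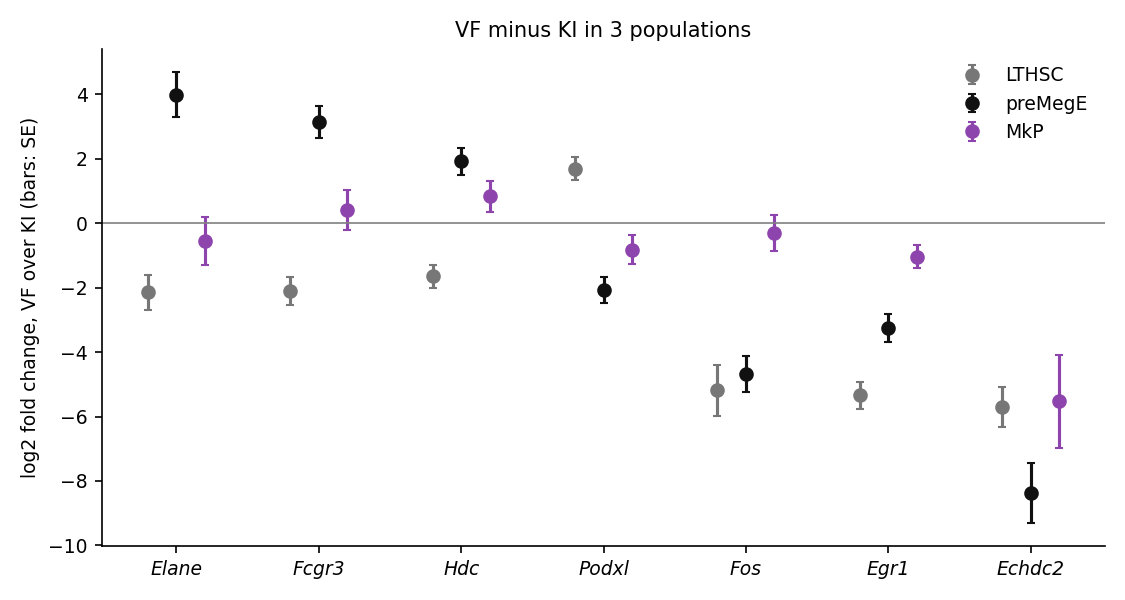
Log2 fold change of VF over KI, with its SE, for 7 genes in LTHSC (grey), preMegE (black) and MkP (purple). Elane, Fcgr3 and Hdc are above 0 in preMegE and below 0 in LTHSC, Podxl is the reverse, and Fos, Egr1 and Echdc2 are below 0 in both.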

How the data were processed

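The authors deposited a table of raw read counts, with genes by Entrez ID. The submitters' processing notes name STAR 2.7.0c, Subread 1.6.4 and featureCounts, with mm10 as the build. The annotation, the strand setting and the handling of reads with several matches are not given in the sources used here. Of 24454 genes, 24374 were matched by ID to RefSeq GRCm38.p6, and 16 rows without a symbol (at most 0.0132% of counts) were left out; 0 value columns were unmapped. Columns named MEP were taken as preMegE by genotype and replicate number. The 6 libraries were compared in 15 pairs and none was a copy, with chi-square at least 72.7 times its degrees of freedom. Smart-seq2 as used here counts reads, not molecules.

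The test across genes was edgeR's quasi-likelihood F test (version 4.0.16, R 4.3.3, robust, 2-sided) after filterByExpr by group with a minimum count of 10 and TMM scaling, with a Benjamini-Hochberg threshold of 0.05. DESeq2 1.42.0 and limma 3.58.1 were alternatives, and the steps were tested on simulated data. There the fit of all 6 libraries recovered 0% of 2-fold, 13.8% of 4-fold and 56.5% of 8-fold differences. It called 2 of 12804 unchanged genes. The fit without KI replicate 1 recovered 4.69%, 76.2% and 92.2% of them, and called 14 of 13153 unchanged genes. Simulated counts were drawn for each gene independently, with its estimated spread and a common mean apart from the added change. A shift of a whole library, as in KI replicate 1, was not in them, so these shares may not hold for the real libraries. For principal components, 500 genes were taken as log2 CPM with a prior count of 2. Differences of differences were fitted over the 12 KI and VF libraries of each pair of populations.

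The members and the 34 gene lists were chosen with earlier results of these data known. The rule for named genes took Jak2; of the genes that passed, up to 10 in each direction by size of change, with no overlap and at least 10 CPM in the higher group; passing list members, up to 5 a list; where fewer than 10 passed, those of smallest p under the same limits; the same without KI replicate 1; the 3 members of highest level per kilobase in each list; and the 5 largest differences between populations each way. Sort markers and other genes given with values outside this rule, such as Cish, Tfrc, Cbl and Prnp, were chosen after their values were seen. Some genes that met the rule, such as C2cd4a, are not given. Some results are not reported here.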

Additional observations from a re-analysis of the deposited data

Results flagged for a closer look

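In 4 genes the VF-to-KI difference in preMegE differed from that in LTHSC by edgeR's quasi-likelihood test of the difference itself (12 libraries, 3 a group, Benjamini-Hochberg adjustment). CPM here is scaled over those 12 libraries, so it differs slightly from the values above.

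For Fcgr3, the low-affinity IgG receptor, the log2 difference of differences was 5.26 (SE 0.61, adjusted p = 0.0111). Its mean was 6.67 ± 2.81 CPM in KI and 59.9 ± 27.6 CPM in VF in preMegE (SD, n = 3), and 5.74 ± 1.85 and 1.33 ± 0.234 CPM in LTHSC.

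For Elane, neutrophil elastase, it was 6.14 (SE 0.80, adjusted p = 0.0203). The preMegE libraries were at 94.0, 77.2 and 82.9 CPM in KI and at 2507, 616.5 and 946 CPM in VF, and the LTHSC libraries at 20.5, 89.6 and 60.4 CPM in KI and at 9.85, 13.4 and 15.4 CPM in VF.

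For Hdc, histidine decarboxylase, it was 3.57 (SE 0.51, adjusted p = 0.0268), with means of 23.9 CPM in KI and 90.8 CPM in VF in preMegE, and of 4.87 and 1.54 CPM in LTHSC.

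For Podxl the sign was the reverse, at -3.74 (SE 0.52, adjusted p = 0.0249). It averaged 97.1 ± 41.6 CPM in KI and 23.4 ± 4.40 CPM in VF in preMegE, and 21.3 ± 7.55 and 68.9 ± 23.4 CPM in LTHSC. In all 4 genes the KI and VF libraries did not overlap in either population. The 4 genes had been chosen by the test of these same libraries, so this is no separate support. The share of all genes that lay apart in both populations is not given here.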

How the results depend on the processing

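The count of 2 called genes depended on the setting. It was 0 with RLE scaling, 9 without a filter on low counts, 68 (27 higher, 41 lower) with DESeq2, 5 with limma voom and 4 in a fit of all 24 libraries; 25 of the 68 were among the 32 genes called without KI replicate 1. Leaving out each library gave 0 to 32: 32 without KI replicate 1, 5 without KI replicate 2, 2 without KI replicate 3, 0 without VF replicate 1, 1 without VF replicate 2 and 0 without VF replicate 3. Without KI replicate 1 and VF replicate 2, an alternative chosen after seeing the data, it was 41. With the replicate number as a block it was 10 (2 higher, 8 lower). The deviations of same-numbered libraries correlated at 0.317, 0.0798 and 0.303. Among pairs with different numbers, KI replicate 2 and VF replicate 3 correlated at 0.247 and the others at -0.335 to -0.0108. Whether same-numbered libraries were handled together was not tested.

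The 4 genes that differed from LTHSC became 7 without a filter, 78 with DESeq2, 2 with limma voom, 0 in the fit of all 24 libraries, 7 with the replicate block and 0 to 14 when each library was left out: 14 without preMegE KI replicate 1, 0 without preMegE VF replicate 3, LTHSC VF replicate 1 or LTHSC VF replicate 2, 1 without the third KI replicate of either population, and 2 without preMegE VF replicate 1, LTHSC KI replicate 1 or LTHSC VF replicate 3. Against MkP, DESeq2 gave 9 and each other setting 0. The cause of these shifts was not tested.

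For 32 named genes under 15 alternatives, 0 of 480 values changed sign, 381 kept their side of the threshold, 92 newly passed and 7, all of Echdc2 or Fosb, no longer passed. All but Jak2 had been named for their p or size of change in these same libraries, so their kept signs are no separate support. The Jak2 difference ranged from 0.58 to 0.96. Scaling by library totals moved the median of all genes from -0.03 to 0.17, and the erythroid transcription factor (0.12), heme (0.11) and stem cell (0.03) medians then lay above 0. At this depth 11207 of 24438 genes had too few counts to be tested.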
